A study of Homo sapiens with 6 samples.

Results

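The SWI/SNF (BAF) chromatin remodeller was examined through 10 of its subunit genes: SMARCA4, SMARCA2, SMARCB1, SMARCC1, SMARCC2, SMARCD1, SMARCD2, SMARCD3, ARID1A and ARID1B. They were chosen by symbol, because the noncoding RNA 7SK is known to bind this complex and A549 cells to carry a mutated SMARCA4. No cut on their values was used, but earlier results of these data were known when they were chosen. All 10 were among the 16779 genes listed in the deposited tables, and all 10 passed the low-count filter. The data are RNA-seq gene counts of 6 libraries labelled A549, a human lung adenocarcinoma line. In 3 libraries the genotype label reads RN7SK knockout, and in the other 3, the controls, it reads WT. No treatment, time point or further allele is labelled. How the knockout was made, and whether it is 1 clone or a pool, is not given in the sources used here.

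SWI/SNF complexes use the energy of ATP to slide or evict nucleosomes, and so open enhancers and promoters to transcription factors. Each complex holds 1 ATPase, either SMARCA4 (BRG1) or SMARCA2 (BRM), on a core built around SMARCC and SMARCD subunits, which in BAF and PBAF also holds SMARCB1. Canonical BAF adds ARID1A or ARID1B, PBAF adds ARID2, PBRM1 and BRD7, and non-canonical BAF (ncBAF), which lacks SMARCB1, adds BRD9. Paralogs within the ATPase, SMARCD and ARID1 families replace each other, and the subunit genes are often mutated in lung and other cancers. 7SK is a small nuclear RNA best known for restraining the elongation kinase P-TEFb, and its BAF-bound form has been described at enhancers and promoters.

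The libraries held 16018260 to 18488790 counts in the knockout-labelled group and 18612303 to 19357144 in the control-labelled group. RN7SK has 0 rows in these tables, and the knockout itself could therefore not be checked. CDKN2A and CDKN2B, which A549 cells are known to lack, had 0, 1 and 2 and 0, 1 and 0 counts in knockout-labelled replicates 1 to 3, against 963, 1005 and 923 and 216, 241 and 238 counts in control-labelled replicates 1 to 3. All 6 genes listed as features of A549 (AKR1B10, AKR1C1, ALDH1A1, NQO1, KRT8 and KRT18) were higher in the knockout-labelled libraries, with a summed level of 12560 to 12835 CPM (counts scaled to library size), against 4711 to 4952 CPM in the control-labelled libraries. Endothelial markers summed to 4.19 to 4.92 CPM over 8 genes in the knockout-labelled libraries and to 162.5 to 175.2 CPM in the control-labelled ones. The control-labelled sum came mostly from ESAM and ENG, and CDH5 was at 0.294 ± 0.0727 against 1.66 ± 0.347 CPM (SD, n = 3 each). KDR, PECAM1, TEK and VWF went the other way at low counts and were not tested. The highest of these was KDR, at 0.64 ± 0.47 against 0.089 ± 0.11 CPM. Summed haematopoietic markers were 12.2 to 13.7 against 5.81 to 6.05 CPM over 7 genes, mostly from CD14 and ITGAM, with CD3E at 0 in all 6 libraries. CD14 and CD8A passed the test as higher, and ITGAM did not pass (edgeR adjusted p = 0.107). SPI1 went the other way at low counts (0.10 against 0.34 CPM) and was not tested. Summed fibroblast markers were 12.4 to 14.5 against 3.56 to 4.56 CPM over 6 genes, mostly from COL1A1 (12.7 ± 0.756 against 3.40 ± 0.560 CPM). The other fibroblast markers had low counts and were not tested, and LUM went the other way (0.13 against 0.39 CPM). Both groups are called by their labels throughout, and the loss of RN7SK and any other difference between the cells behind the 2 groups cannot be told apart. The part of these markers in the subunit results was not tested. Nothing says that replicates came from separate cultures, so the p-values measure the spread between these libraries.

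The 2 groups' FPKM tables (fragments per unit of gene length and depth) had been made with different gene lengths. Of 14582 genes with a recovered length in both groups, 4716 (32.3%) agreed within 1%. Among the 10 subunits, ARID1A had 8595 bases in the knockout-labelled and 8583 in the control-labelled tables. The lengths of SMARCA4, SMARCA2 and SMARCD1 were also close, with ratios of knockout-labelled to control-labelled of 0.986, 0.984 and 0.988. SMARCB1 had 5164 bases in the knockout-labelled against 1789 in the control-labelled tables, and ARID1B 8516 against 10280. Differences between the groups are therefore given from counts, and FPKM is used to set one subunit beside another.

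All 10 subunits passed the test between knockout-labelled and control-labelled libraries (edgeR quasi-likelihood, adjusted p under 0.05): 3 were higher and 7 lower in the knockout-labelled libraries. This has to be read against all genes, of which 85% passed, 42% higher and 43% lower. SMARCA2 and SMARCD3 rose at least 2-fold, as did 19.5% of tested genes, and SMARCA4 and SMARCC1 fell at least 2-fold, as did 14.1%. The median log2 fold change over the 10 was -0.47, against -0.01 over all 12929 tested genes. The median absolute log2 fold change was 0.76, against 0.65 over all tested genes. CPM did not overlap between the groups for 9 of the 10 subunits, against 85.6% of tested genes, and FPKM likewise for 9, against 86% of tested genes. In bulk RNA, fewer cells with a transcript and less of it per cell cannot be told apart.

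**Figure D1:**
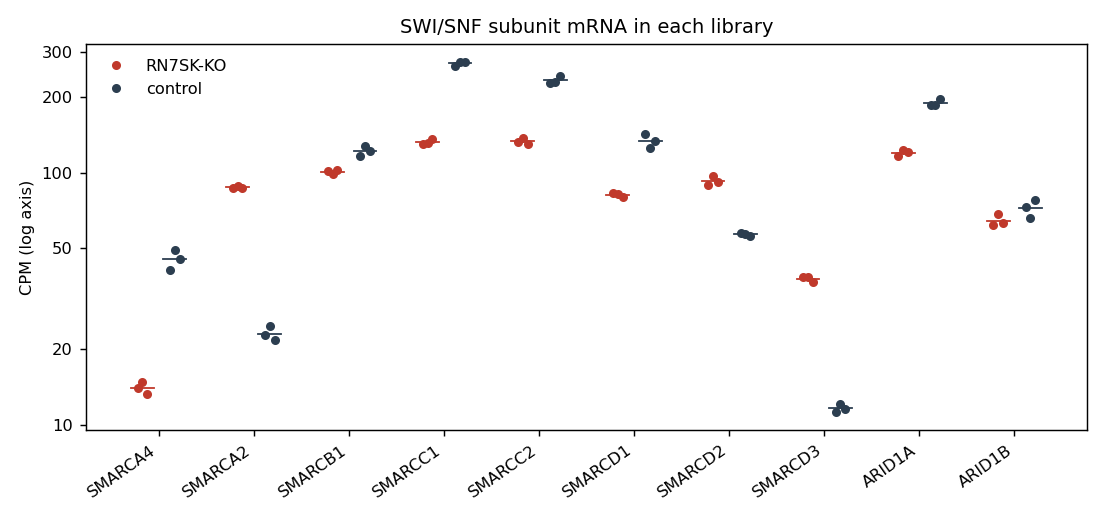
CPM of each subunit (log axis) in the 3 knockout-labelled (RN7SK-KO) and 3 control-labelled libraries; points are libraries and lines are group means. SMARCA2 lies near 88 CPM in the knockout-labelled and near 23 CPM in the control-labelled libraries, and SMARCA4 near 14 and 45.4 CPM. Of the 10 subunits only ARID1B overlaps between groups, and 85.6% of all tested genes did not overlap.

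The ATPases moved in opposite directions and, with SMARCD3, had the largest absolute fold changes of the 10 subunits. SMARCA2, the BRM ATPase (chromosome 9, 2015347 to 2193620, GRCh38, plus strand), had 1618, 1482 and 1416 counts in knockout-labelled replicates 1 to 3, and 418, 471 and 414 counts in control-labelled replicates 1 to 3. Every knockout-labelled library was far above every control-labelled one. SMARCA2 averaged 87.6 ± 0.867 CPM in the knockout-labelled and 23.0 ± 1.55 CPM in the control-labelled libraries (SD, n = 3 each), a 3.81-fold rise (log2 fold change 1.93 ± 0.062, fit ± SE, edgeR adjusted p = 1.67e-24). SMARCA4, the BRG1 ATPase (chromosome 19, 10961030 to 11062273, plus strand), had 259, 247 and 216 counts in the knockout-labelled libraries, and 761, 944 and 872 counts in the control-labelled libraries. It averaged 14.0 ± 0.739 CPM against 45.4 ± 4.16 CPM and fell by 1.70 ± 0.079 on the log2 scale (edgeR adjusted p = 7.94e-20). The groups did not overlap, although in CPM SMARCA4 had the widest relative spread of the 10 subunits in both groups. Its coefficient of variation was 5.28% in the knockout-labelled and 9.18% in the control-labelled libraries. In the knockout-labelled libraries ARID1B was close in CPM, at 5.21%, and wider in FPKM (4.96% against 4.78% for SMARCA4).

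Per length, the ATPases changed places. In FPKM, SMARCA2 was at 12.7, 12.9 and 12.8 in knockout-labelled replicates 1 to 3 and at 3.20, 3.48 and 3.05 in the control-labelled ones. SMARCA4 was at 2.27, 2.41 and 2.19 FPKM in the knockout-labelled and at 6.53, 7.82 and 7.20 FPKM in the control-labelled libraries. SMARCA2 thus made up 84.8% ± 0.569 of the summed ATPase FPKM in the knockout-labelled libraries and 31.2% ± 1.60 in the control-labelled libraries (SD, n = 3 each). The summed ATPase level was 15.1 ± 0.184 FPKM in the knockout-labelled and 10.4 ± 0.796 FPKM in the control-labelled libraries. The log2 ratio of SMARCA4 to SMARCA2 averaged -2.49 ± 0.064 in the knockout-labelled and 1.14 ± 0.107 in the control-labelled libraries, a difference of -3.63 (exact permutation test over the 6 libraries, two-sided, p = 0.1, which is the smallest that 3 against 3 can give, and also 0.1 after adjustment over the 5 paralog ratios compared). All 3 knockout-labelled libraries were below 0 and all 3 control-labelled libraries were above it. With the same gene lengths in both groups the difference was -3.63 as well.

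**Figure D2:**
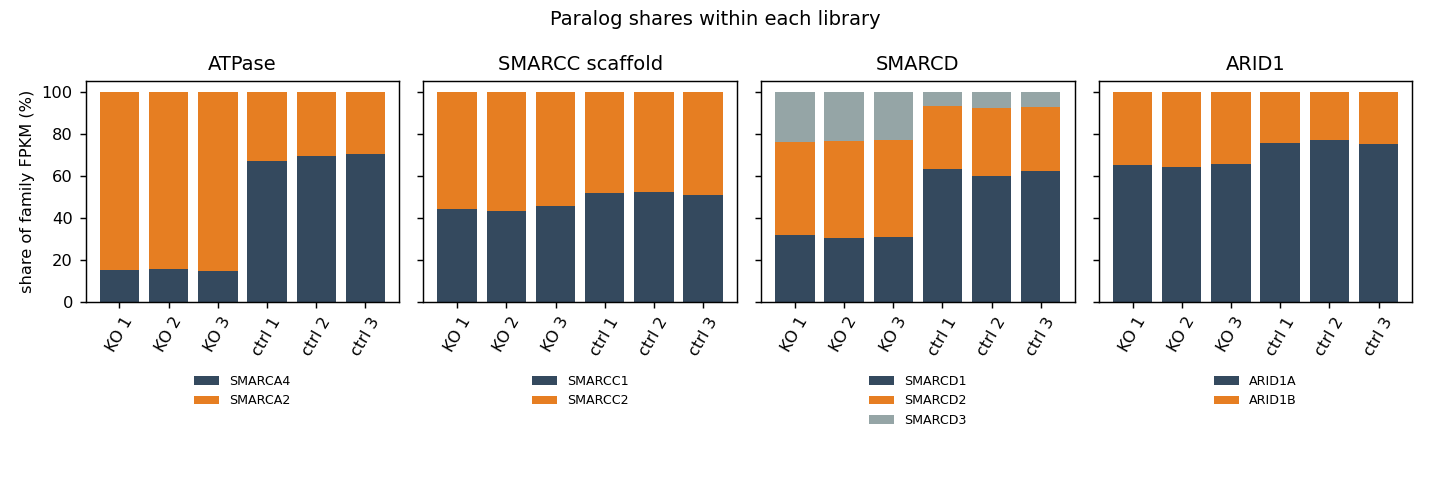
Share of each paralog in the summed FPKM of its family (%, stacked bars), per library, with RN7SK-KO libraries left of control libraries. SMARCA2 takes 84.3 to 85.4% of the ATPase level in the knockout-labelled libraries and 29.8 to 32.9% in the control-labelled libraries, and SMARCD1 takes a smaller share of its family in each knockout-labelled library than in any control-labelled one.

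The sequences just before the annotated starts of these ATPase genes, and of the SMARCD paralogs that moved in opposite directions, are shown because the genes of each pair differ in direction. Each is the 250 bases before the start in RefSeq (GRCh38.p14), 5′ to 3′ on the gene's strand, with matches to 6 searched motifs in capitals. The motifs, searched on both strands, were the TATA box TATAAA, the GC box GGGCGG, the CCAAT box, the ETS motif CCGGAAG, the AP-1 motif TGANTCA and the NRF1 motif GCATGCGC. SMARCA4 is at chr19:10960780-10961029 (plus strand), SMARCA2 at chr9:2015097-2015346 (plus), SMARCD1 at chr12:50085092-50085341 (plus) and SMARCD3 at chr7:151277150-151277399 (minus).
SMARCA4: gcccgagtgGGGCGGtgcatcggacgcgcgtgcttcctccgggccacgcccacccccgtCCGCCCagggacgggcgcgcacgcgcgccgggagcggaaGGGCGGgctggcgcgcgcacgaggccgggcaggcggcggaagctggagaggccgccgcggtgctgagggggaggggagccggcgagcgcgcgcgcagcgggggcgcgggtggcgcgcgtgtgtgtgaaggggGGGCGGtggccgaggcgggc
SMARCA2: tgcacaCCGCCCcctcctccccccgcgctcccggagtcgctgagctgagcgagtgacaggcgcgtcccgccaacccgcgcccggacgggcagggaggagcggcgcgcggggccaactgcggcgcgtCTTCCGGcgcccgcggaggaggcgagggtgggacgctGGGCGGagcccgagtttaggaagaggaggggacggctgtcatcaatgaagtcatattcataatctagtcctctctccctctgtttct
SMARCD1: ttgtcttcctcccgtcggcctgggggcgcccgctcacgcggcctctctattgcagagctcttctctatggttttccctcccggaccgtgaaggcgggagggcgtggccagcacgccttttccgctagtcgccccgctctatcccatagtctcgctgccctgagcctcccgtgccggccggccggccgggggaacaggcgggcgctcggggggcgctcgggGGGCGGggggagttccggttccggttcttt
SMARCD3: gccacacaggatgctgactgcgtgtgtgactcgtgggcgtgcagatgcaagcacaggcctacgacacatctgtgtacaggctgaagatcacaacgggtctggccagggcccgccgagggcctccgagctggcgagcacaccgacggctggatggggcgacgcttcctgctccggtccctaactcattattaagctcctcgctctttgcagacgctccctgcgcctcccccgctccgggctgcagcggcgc
The SMARCA4 window had 82.4% G and C, 44 CpG dinucleotides and 4 GC boxes (GGGCGG). The SMARCA2 window had 68.8% G and C, 29 CpG, 2 GC boxes and 1 ETS match (CCGGAAG). The SMARCD1 window held 28 CpG and 1 GC box, and the SMARCD3 window 21 CpG and 0 matches to the 6 motifs. Of the 8 subunits with an entry, 4 held a GC box, against 42.5% of 34943 promoters of the same length, 2 held CCAAT (32% of promoters), 1 held CCGGAAG (8.48%) and 1 held TGANTCA (6.59%). None of the 8 held TATAAA (10.8%) or GCATGCGC (2.6%) in this window. The median number of CpG was 28.5 over the 8 subunits and 11 over all promoters. Those promoters were not matched to the subunits by expression or gene type, so whether the CpG number is particular to the subunits was not tested. SMARCC1 and SMARCC2 had no entry. A match is a string of letters and not evidence of binding.

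The SMARCD family, whose members link the core to transcription factors, also shifted between paralogs. SMARCD3 (BAF60C; chromosome 7, 151238780 to 151277149, minus strand), best known from heart and muscle development, had 719, 646 and 596 counts in the knockout-labelled libraries and 207, 231 and 220 counts in the control-labelled libraries. That is 38.0 ± 1.14 CPM against 11.6 ± 0.464 CPM, a 3.27-fold rise (log2 fold change 1.71 ± 0.078, edgeR adjusted p = 3.54e-20). SMARCD2 (BAF60B; chromosome 17, 63832081 to 63842685, minus strand), which is needed for granulocyte development, had 1658, 1617 and 1499 counts in the knockout-labelled and 1067, 1094 and 1070 in the control-labelled libraries. It averaged 92.7 ± 3.75 against 56.9 ± 0.897 CPM and rose 1.63-fold (log2 fold change 0.70 ± 0.054, edgeR adjusted p = 5.16e-14). SMARCD1 (BAF60A; chromosome 12, 50085342 to 50100707, plus strand), the paralog with the highest FPKM of the family in the control-labelled libraries, had 1543, 1371 and 1301 counts in the knockout-labelled and 2626, 2402 and 2546 in the control-labelled libraries, and fell by 0.71 ± 0.051 on the log2 scale (edgeR adjusted p = 1.25e-14). For each of the 3 paralogs the CPM of the groups did not overlap, as held for 85.6% of all tested genes.

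As a share of SMARCD FPKM, SMARCD1 made up 31.1% ± 0.702 in the knockout-labelled and 61.7% ± 1.57 in the control-labelled libraries. SMARCD2 made up 45.5% ± 1.19 against 30.8% ± 1.03, and SMARCD3 23.5% ± 0.547 against 7.48% ± 0.555 (SD, n = 3 each). SMARCD2 was therefore the leading paralog in the knockout-labelled libraries and SMARCD1 in the control-labelled libraries. The log2 ratio of SMARCD1 to SMARCD2 differed by -1.55 and that of SMARCD3 to SMARCD2 by 1.09 (exact permutation p = 0.1 each, the smallest possible). From raw counts, which equal the use of 1 gene length in both groups, the differences were -1.41 and 1.01.

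The core scaffold genes SMARCC1 and SMARCC2 both fell. SMARCC1 (BAF155; chromosome 3, 47585269 to 47781893, minus strand) had 2426, 2192 and 2201 counts in the knockout-labelled and 4903, 5271 and 5240 in the control-labelled libraries. It averaged 132.3 ± 2.70 against 271.6 ± 5.93 CPM, a 2.05-fold lower level in the knockout-labelled libraries (log2 fold change -1.04 ± 0.044, edgeR adjusted p = 4.47e-21). SMARCC2 (BAF170; chromosome 12, 56162359 to 56189483, minus strand) had 2458, 2303 and 2103 counts in the knockout-labelled and 4184, 4376 and 4637 in the control-labelled libraries. It fell by 0.81 ± 0.046 on the log2 scale (edgeR adjusted p = 1.66e-17). In CPM, every knockout-labelled library was below every control-labelled library for both genes. The groups did not overlap, in either direction, for 85.6% of all tested genes. Their summed level was 46.7 ± 0.539 FPKM in the knockout-labelled and 88.6 ± 2.0 FPKM in the control-labelled libraries. SMARCC1 took 44.2% ± 1.18 of it in the knockout-labelled and 51.5% ± 0.80 in the control-labelled libraries. Which paralog led depended on the lengths. With the knockout-labelled lengths in both groups SMARCC1 took 44.2% and 48.2%, so that SMARCC2 led in both groups. With the control-labelled lengths in both groups SMARCC1 took 47.4% and 51.5%. The log2 ratio of SMARCC1 to SMARCC2 differed by -0.42 from FPKM (exact permutation p = 0.1, the smallest possible) and by -0.23 with 1 length in both groups.

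SMARCB1 (SNF5; chromosome 22, 23786966 to 23838009, plus strand), the core subunit lost in rhabdoid tumours, differed little in counts. It had 1882, 1650 and 1669 counts in the knockout-labelled and 2156, 2433 and 2326 in the control-labelled libraries, or 100.8 ± 2.06 against 121.8 ± 5.47 CPM. The groups did not overlap, and the log2 fold change was -0.27 ± 0.049 (edgeR adjusted p = 5.96e-06). Of all tested genes, 76.3% had an absolute log2 fold change at least this large. In FPKM it was at 19.4, 18.9 and 19.9 in the knockout-labelled and at 63.6, 69.2 and 66.0 in the control-labelled libraries, and with the recovered lengths as an offset the log2 fold change was -1.80 (edgeR adjusted p = 2.53e-26). The direction held and the size depended on which length is used. All exons annotated for SMARCB1 in GENCODE 29 cover 16525 bases, and its longest transcript 5210, so that both recovered lengths are shorter than the longest transcript.

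**Figure D3:**
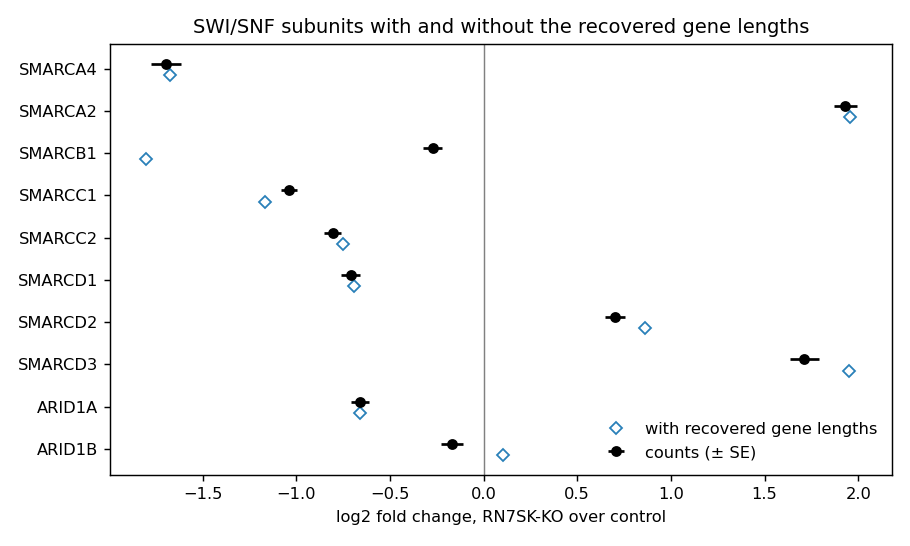
Log2 fold change (RN7SK-KO over control) of each subunit from counts (filled, ± SE) and with the recovered gene lengths as an offset (open). The 2 values lie close for SMARCA4, SMARCA2, SMARCD1 and ARID1A, are -0.27 and -1.80 for SMARCB1, and lie on opposite sides of 0 for ARID1B.

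The ARID1 subunits, large DNA-binding proteins that define canonical BAF, differed in how firmly they could be called. ARID1A (chromosome 1, 26696015 to 26782104, plus strand), a frequently mutated tumour suppressor, had 2155, 2061 and 1957 counts in the knockout-labelled and 3448, 3527 and 3763 in the control-labelled libraries. It averaged 119.8 ± 3.66 against 189.2 ± 6.54 CPM and fell by 0.66 ± 0.046 on the log2 scale (edgeR adjusted p = 5.86e-15), with no overlap. ARID1B (chromosome 6, 156776026 to 157210779, plus strand), its paralog, had 1154, 1144 and 1027 counts in the knockout-labelled and 1352, 1264 and 1496 in the control-labelled libraries. Scaled to library size these were 62.1, 68.4 and 63.2 CPM against 73.0, 66.2 and 78.2 CPM, and control-labelled replicate 2 lay within the knockout-labelled range. ARID1B passed the test in counts (log2 fold change -0.17 ± 0.060, edgeR adjusted p = 0.0111). It did not pass with the length offset, where the sign turned (0.10, edgeR adjusted p = 0.109), or without knockout-labelled replicate 1 (-0.14, edgeR adjusted p = 0.0721) or control-labelled replicate 3 (-0.12, edgeR adjusted p = 0.0783). ARID1A made up 64.8% ± 0.649 of the summed ARID1 FPKM in the knockout-labelled and 75.8% ± 1.03 in the control-labelled libraries. The difference of the log2 ratio was -0.77 from FPKM (exact permutation p = 0.1, the smallest possible) and -0.49 with 1 length in both groups.

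With each group's own gene lengths, the order of the subunits by FPKM differed between the groups. In the knockout-labelled libraries SMARCD2 was highest at 34.5 ± 1.36 FPKM, followed by SMARCC2, SMARCD1, SMARCC1, SMARCB1, SMARCD3, ARID1A, SMARCA2, ARID1B and SMARCA4, the last at 2.29 ± 0.109 FPKM. Each neighbouring pair in that order had ranges that did not overlap. In the control-labelled libraries SMARCB1 was highest at 66.3 ± 2.82 FPKM, followed by SMARCC1, SMARCC2, SMARCD1, ARID1A, SMARCD2, SMARCA4, ARID1B, SMARCD3 and SMARCA2, the last at 3.25 ± 0.218 FPKM. The ranges of SMARCC1 and SMARCC2, and those of SMARCA4 and ARID1B, overlapped there. The first place of SMARCB1 came with its short control-labelled length. With the knockout-labelled lengths in both groups, SMARCB1 was at 19.4 ± 0.494 FPKM in the knockout-labelled libraries (rank 5) and at 23.0 ± 0.978 FPKM in the control-labelled libraries (rank 4). With the control-labelled lengths in both groups it ranked 1 in each, at 55.9 ± 1.43 FPKM in the knockout-labelled and 66.3 ± 2.82 FPKM in the control-labelled libraries. SMARCA4 was last in the knockout-labelled and SMARCA2 last in the control-labelled libraries with either set of lengths. SMARCA4 had more FPKM than 43.4% of listed genes in the knockout-labelled and than 61.9% in the control-labelled libraries. For SMARCA2 these shares were 73.4% and 48.9%. In CPM, the coefficient of variation was larger in the control-labelled group for 9 of the 10 subunits. In FPKM it was larger in the knockout-labelled group for SMARCC1 (2.61% against 1.88%) and SMARCD2 (3.94% against 1.85%).

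The remaining subunits of the complexes moved in both directions. Of 19 further genes on the lists, 18 were tested, 5 rose, 12 fell and 1 did not pass (median log2 fold change -0.56). Over all 28 tested subunits 8 rose and 19 fell. Of all tested genes, 42% rose, 43% fell and 85% passed in either direction, and this background holds for each small group of subunits given next. Among the subunits listed as shared between complexes, 3 of 6 rose and 3 fell. SMARCE1 (BAF57) rose by 0.59 ± 0.047 (log2) from counts and had -0.49 once lengths were offset, its length being 5150 bases in the knockout-labelled and 2425 in the control-labelled tables. BCL7B rose by 0.74 ± 0.061 and its paralog BCL7C fell by 1.30 ± 0.076. ACTB, the actin of the complex and of the cytoskeleton, fell by 0.71 ± 0.037. These 4 had edgeR adjusted p between 1.71e-18 and 4.24e-13.

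Of the other subunits listed under canonical BAF, 4 of 5 fell and 0 rose. Over all tested genes, 43% fell and 42% rose. The lists do not overlap, although a subunit can belong to several complexes. DPF3, a histone-reading subunit known from heart and muscle, had 0, 2 and 0 counts in the knockout-labelled and 143, 130 and 126 in the control-labelled libraries. The summed ratio of control-labelled to knockout-labelled was 178.3, with a 95% exact counting interval of 49.0 to 1477 that covers counting error only. SS18, the subunit fused to SSX in synovial sarcoma, averaged 85.2 ± 1.75 against 194 ± 4.25 CPM, and its paralog SS18L1 averaged 16.3 ± 1.31 against 41.4 ± 1.81 CPM. They fell by 1.19 ± 0.047 and 1.35 ± 0.075. DPF1 fell by 1.07 ± 0.171. DPF2, the widely expressed DPF paralog, averaged 69.6 ± 2.74 against 71.5 ± 1.46 CPM and did not pass in counts (log2 fold change -0.04 ± 0.054, edgeR adjusted p = 0.496), whereas the length offset gave 0.74 (edgeR adjusted p = 1.79e-14), with 2674 bases in the knockout-labelled and 4592 in the control-labelled tables.

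All 4 PBAF subunits fell: PHF10 by 0.96 ± 0.068, ARID2 by 0.63 ± 0.069, PBRM1 by 0.49 ± 0.057 and BRD7 by 0.24 ± 0.047 on the log2 scale (edgeR adjusted p between 7.6e-15 and 2.76e-05). Of all tested genes, 43% fell. In ncBAF the bromodomain subunit BRD9 fell, with 689, 645 and 633 counts in the knockout-labelled and 2581, 2634 and 2916 in the control-labelled libraries (38.2 ± 0.993 against 143.2 ± 7.98 CPM, log2 fold change -1.91 ± 0.056). BRD9 had the largest absolute log2 fold change among the other subunits apart from DPF3. The ncBAF scaffold paralogs BICRA and BICRAL had log2 fold changes of 0.25 ± 0.079 and 0.35 ± 0.077 (edgeR adjusted p = 0.00367 and 0.000135), and BICRA did not pass without knockout-labelled replicate 3 (0.18, edgeR adjusted p = 0.0569).

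**Figure D4:**
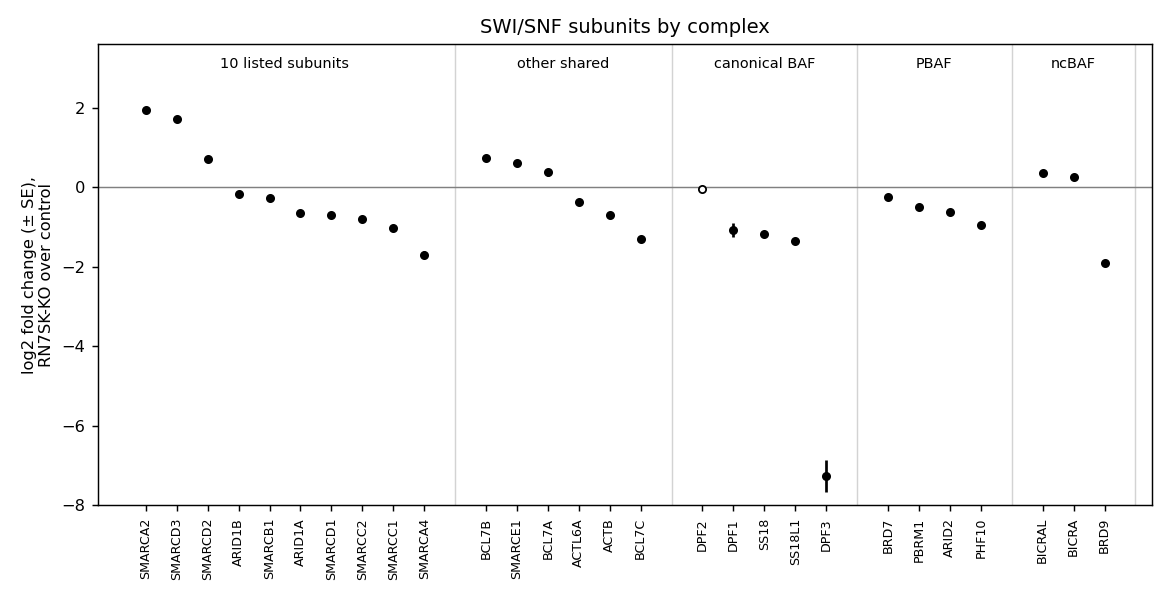
Log2 fold change (± SE, RN7SK-KO over control, from counts) of the 28 tested SWI/SNF subunits, grouped by the list each was placed on. The lists do not overlap, although a subunit can belong to several complexes. Filled points passed the test and the open point did not. All 4 PBAF subunits lie below 0 (43% of all tested genes fell), and DPF3, at 0, 2 and 0 counts in the knockout-labelled libraries, lies lowest.

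Other remodeller families and the opposing Polycomb complex PRC2 give the setting. Of 11 ISWI genes 3 rose and 5 fell (median log2 fold change -0.10), of 21 CHD and NuRD genes 5 rose and 13 fell (-0.30), of 22 genes of the INO80, SRCAP and EP400 complexes 9 rose and 10 fell (-0.06), and of 9 PRC2 genes 1 rose and 6 fell (-0.27). Over all tested genes 42% rose and 43% fell, with a median of -0.01. The ISWI ATPase SMARCA1 fell by 1.87 ± 0.052 on the log2 scale, and the other ISWI genes BAZ1A, BAZ2A and RSF1 fell by 0.84, 0.67 and 0.66. CHD5, a remodeller best known from neurons, rose 13.8-fold to 19.2 ± 1.54 CPM in the knockout-labelled libraries, against 1.39 ± 0.381 CPM in the control-labelled libraries. The NuRD genes CDK2AP1, GATAD2A and HDAC1 fell by 1.24, 1.09 and 0.87. INO80D, NFRKB and RUVBL2 fell by 1.25, 0.90 and 0.72 and the acetyltransferase KAT5 rose by 0.78. The PRC2 methyltransferase EZH2 fell by 0.67, its partners EED and PHF19 by 0.69 and 0.82, and MTF2 by 1.60. The log2 fold change of MTF2 was -0.08 with the length offset and did not pass (edgeR adjusted p = 0.272), with 3995 bases in the knockout-labelled and 11385 in the control-labelled tables.

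Among the 81 tested genes of these lists outside the 10 subunits, the profiles nearest to SMARCA4 over the 6 libraries (root mean square distance of mean-centred log2 CPM) were those of MTF2, SMARCA1 and BRD9, at 0.101, 0.14 and 0.156. The place of MTF2 depends on CPM taking no account of length. With the length offset its log2 fold change was -0.08, against -1.68 for SMARCA4. Nearest to SMARCA2 were SRCAP, KAT5 and CECR2, at 0.491, 0.573 and 0.586. The SMARCA2 matches were thus further away, and SRCAP and KAT5 had smaller log2 fold changes (0.98 and 0.78, against 1.93 for SMARCA2). CECR2 rested on 12, 11 and 12 counts in the knockout-labelled and 6, 4 and 1 in the control-labelled libraries. Genes whose activation has been tied to SMARCA4 in cells that lack it went both ways: CDH1 (E-cadherin) and the cytokine gene CSF1 rose by 2.44 ± 0.056 and 2.23 ± 0.053, to 158.4 ± 4.38 and 160 ± 2.74 CPM in the knockout-labelled libraries, against 29.2 ± 1.48 and 34.1 ± 0.932 CPM in the control-labelled libraries. CD44, a hyaluronan receptor, fell by 0.49 ± 0.038. 

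The subunit genes lie on 9 chromosomes, and their neighbours were looked at as a description of position. Within 1 Mb of the start of SMARCA2, on distal 9p, 2 genes were tested and both rose, where 42% of all tested genes rose and 43% fell. VLDLR, a lipoprotein receptor, rose by 3.82 ± 0.069 and PUM3 by 0.81 ± 0.064 on the log2 scale. Around SMARCB1, on 22q, 15 of 22 neighbours rose and 3 fell (median log2 fold change 0.36), against 42% and 43% of all tested genes. The 4 with the smallest p there were SUSD2 (6.57 ± 0.073), GGT1 (2.79 ± 0.053), GGT5 (5.58 ± 0.126) and RAB36 (2.22 ± 0.103). Named after its values were seen, GSTT2B was at 0 CPM in all knockout-labelled libraries, against 2.86 ± 0.435 CPM in the control-labelled libraries; its counts are uncertain, since it has a near-identical copy, GSTT2. SMARCB1 itself lay below 19 of its 22 neighbours. Around SMARCA4, on 19p, 15 of 51 neighbours rose and 30 fell (median -0.39), again against 42% and 43% of all tested genes, and SMARCA4 was lower than 42 of them. Picked after their values were seen, the 6 neighbours of SMARCA4 with log2 fold changes of -4 or below were ICAM1, RGL3 and 4 zinc finger genes. The zinc finger genes ZNF441, ZNF440, ZNF69 and ZNF700 lay 806 to 964.1 kb from it, and the last 2 were at 0 CPM in all knockout-labelled libraries, against 5.54 ± 0.403 and 13.8 ± 2.46 CPM in the control-labelled libraries. Around the remaining 7 subunits the neighbour medians ran between -0.55 near ARID1A and 0.18 near SMARCD2, and 2 of the 20 neighbours of SMARCD3 had a higher log2 fold change than SMARCD3.

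**Figure D5:**
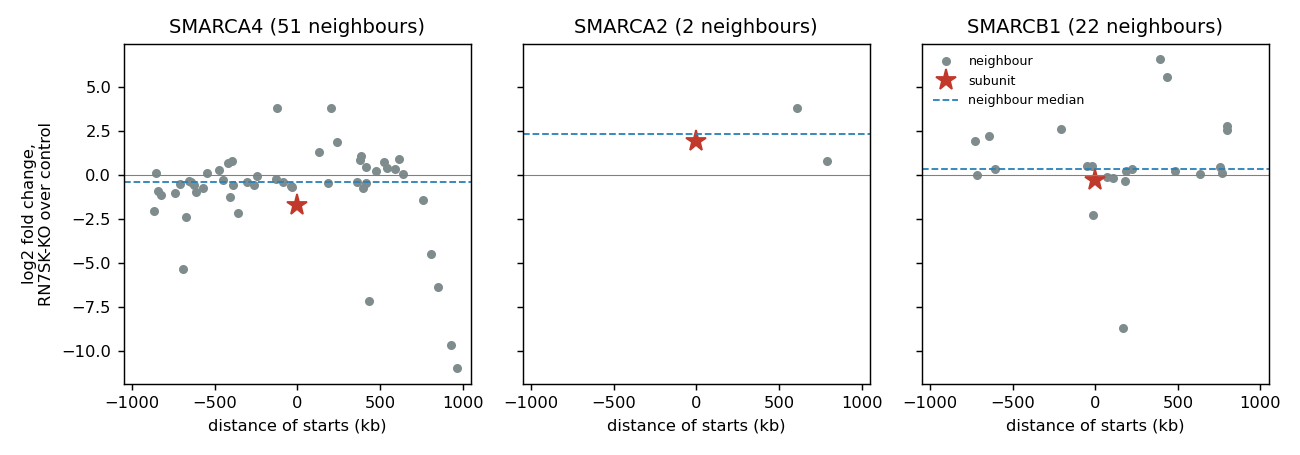
Log2 fold change (RN7SK-KO over control) of tested genes within 1 Mb of SMARCA4, SMARCA2 and SMARCB1, against the distance between gene starts in kb (circles), with the subunit (star) and the neighbours' median (dashed line). Both neighbours of SMARCA2 lie above 0, and the neighbours of SMARCB1 centre above SMARCB1 itself. The fitted values of ZNF69 and ZNF700, at 0 counts in the knockout-labelled libraries, depend on the prior count of the fit.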

How the data were processed

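Gene expression was measured by RNA-seq in 6 libraries labelled A549, 3 RN7SK knockout and 3 wild-type control, from total RNA extracted with TRIzol and an mRNA library kit, per the labels' protocols. The authors deposited read counts per gene symbol, not normalized, and FPKM for each library. HISAT2 2.2.1.0, Trimmomatic 0.36, FastQC 0.11.5 and the build GRCh38 are listed in the submitters' processing notes, which give no order. For the read counter, annotation and strand setting the sources used here say nothing, and reads of overlapping genes could be shared in ways that cannot be traced.

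Counts were fitted in R 4.3.3 with edgeR 4.0.16 (filterByExpr, trimmed mean of M values with factors of 0.989 to 1.02, glmQLFit robust, glmQLFTest). Adjustment of the two-sided p-values (Benjamini-Hochberg) covered 12929 genes, with 0.05 as the threshold and a common biological coefficient of variation of 0.0443. The code was tested on simulated counts. Gene lengths were recovered from count and FPKM as whole numbers within 0.02 bases. Positions and promoters are from RefSeq (GRCh38.p14), with 16491 genes matched by symbol and 226 by synonym, and exon and transcript lengths from GENCODE 29. Paralog ratios were compared by an exact permutation test. Replicate pairs differed by more than sampling noise (1.74 to 2.03 for chi-square over its degrees of freedom within the knockout-labelled and 2.96 to 8.3 within the control-labelled group, highest for pairs with control-labelled replicate 2). Alternatives were other scalings, filters and tests (limma 3.58.1 on voom weights or on log2(FPKM + 0.1) and log2(FPKM + 1), DESeq2 1.42.0), a length offset, a replicate block and leaving out each library. Added after the data were seen were paralog ratios and the FPKM order with 1 group's lengths in both groups, and the length offset with the median of all genes subtracted.

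The 10 subunits, the gene lists and the tests were chosen with earlier results of these data known. Named genes were all 10 subunits, up to 4 of each list by smallest p (all of lists of 5 or fewer), the 3 nearest profiles to the subunit that rose and the one that fell most, and up to 4 neighbours each of SMARCA2 and SMARCB1. Figures were made in Python 3.11.15.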

Additional observations from a re-analysis of the deposited data

How the results depend on the processing

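Of the 10 subunits, 9 kept their direction and their side of the threshold under every alternative run. ARID1B did not. Its log2 fold change, -0.17 in the main analysis, did not pass under upper quartile scaling (-0.081, edgeR adjusted p = 0.203) or where the filter kept genes averaging 10 CPM or more (-0.080, edgeR adjusted p = 0.225). It was 0.13 and 0.12 by limma with 0.1 and 1 added to FPKM (adjusted p = 0.11 and 0.109), 0.10 with the length offset, and 0.046 with the length offset after the median of all genes was subtracted. In those settings the longer control-labelled length of ARID1B enters. Leaving out 1 library at a time gave -0.23 to -0.12 for ARID1B, and 6 to 7 subunits called lower with 3 called higher each time. SMARCE1 turned to -0.46, -0.45 and -0.49 in the same FPKM settings and with the length offset. DPF2, which did not pass, had 0.76, 0.73 and 0.74 there, 0.048 under upper quartile scaling and 0.048 under the filter of 10 CPM. The median of all tested genes moved to 0.08 under upper quartile scaling and to 0.06 with the length offset, from -0.01. Fitted values of DPF3 ran from -10.0 to -6.70 with 1 library left out, since its 2 knockout-labelled counts lie in replicate 2. The median around SMARCA4 was -0.25 within 500 kb, -0.51 within 2000 kb and -0.30 with the length offset. Around SMARCA2 it was 1.84 within 2000 kb and 1.92 with the length offset, with no tested neighbour within 500 kb, and around SMARCB1 0.23 within 500 kb and 0.48 within 2000 kb. The replicate numbers did not pair the libraries (correlations of same-numbered deviations 0.018, -0.0248 and -0.00775). A replicate block called 10910 genes in place of 10992 and all 10 subunits, with ARID1B at -0.17 (edgeR adjusted p = 0.0126), and the exact sign-flip test of each paralog ratio, paired by number, gave p = 0.25, the smallest that 3 pairs allow.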
